A study of Mus musculus with 17 samples.

Results

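Rhox5, Rhox6, Rhox9, Tex13b and Mageb16 are 5 X-linked genes best known from the testis and other reproductive tissues, measured here by RNA-seq in mouse embryonic stem cells. They were chosen by their values, out of 54532 genes in the deposited expression table, because these were higher in Usb1 knockout cells than in wild-type cells at every day examined, which on group means of log2 values holds for 2666 of the genes tested (12.2%). All 5 passed the filter on low values that left 21871 genes for testing. Since the contrast of knockout with wild-type chose them, it is described below without a test, and tests are given for the change of each gene over days within a genotype. The libraries came from R1/E cells, an embryonic stem cell line of male mice, either wild-type or of a single Usb1 knockout line (KO-1) made by CRISPR/Cas9 editing. Usb1 encodes the exonuclease that trims the U6 snRNA 3′-end. Cells were collected without retinoic acid (RA; day 0) and after 1 or 3 days of RA, which starts differentiation. Genotype and day gave 6 groups, of 2 libraries for wild-type at day 0 and 3 for the rest (17 in all), each an independent biological replicate, and the study asked whether Usb1 is needed for differentiation. With 1 knockout line, an effect of the mutation and a property of that line cannot be told apart.

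The Rhox genes form a cluster of homeobox genes on the X chromosome that encode transcription factors of the reproductive tract, the germline and the placenta. Rhox5 (Pem), the founding member, is active in Sertoli cells and in extraembryonic tissue, while Rhox6 and Rhox9 are expressed in placenta, ovary and germ cells, and DNA methylation is a well-known repressor of the cluster in embryonic cells. Mageb16 belongs to the X-linked MAGE family, many of whose members are expressed mainly in male germ cells and tumours, and Tex13b is a testis-expressed gene whose product is little studied.

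On GRCm38 all 5 genes are annotated as protein coding. Rhox5 (ENSMUSG00000095180) lies at chrX:37804842-37808876 and Rhox6 (ENSMUSG00000006200) at chrX:37826910-37829857, both on the plus strand. Rhox9 (ENSMUSG00000068048) lies in the same cluster at chrX:37899097-37901770 on the minus strand. Mageb16 (ENSMUSG00000046942) is at chrX:79623231-79671435 and Tex13b (ENSMUSG00000042386) at chrX:140808307-140813433, both on the minus strand and far from the Rhox cluster and from each other. The members therefore occupy 3 separate parts of the X chromosome.

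Promoter sequences of Tex13b and Mageb16 are shown because these genes share the genotype difference that chose the members with the Rhox genes although they lie apart from them, and because CpG dinucleotides, in capitals, are where DNA methylation could act; methylation was not measured. Each runs from 250 bases before to 50 bases after the RefSeq start (GRCm38.p6), 5′ to 3′ on the gene's strand, at chrX:140813384-140813683 for Tex13b and chrX:79671386-79671685 for Mageb16, both on the minus strand.
Tex13b promoter: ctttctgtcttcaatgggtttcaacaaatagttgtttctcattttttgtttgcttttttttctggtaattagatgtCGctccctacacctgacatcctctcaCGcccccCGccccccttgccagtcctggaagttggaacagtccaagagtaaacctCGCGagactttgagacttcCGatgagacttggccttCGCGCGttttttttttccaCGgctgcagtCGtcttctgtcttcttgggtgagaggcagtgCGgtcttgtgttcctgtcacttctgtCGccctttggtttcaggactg
Mageb16 promoter: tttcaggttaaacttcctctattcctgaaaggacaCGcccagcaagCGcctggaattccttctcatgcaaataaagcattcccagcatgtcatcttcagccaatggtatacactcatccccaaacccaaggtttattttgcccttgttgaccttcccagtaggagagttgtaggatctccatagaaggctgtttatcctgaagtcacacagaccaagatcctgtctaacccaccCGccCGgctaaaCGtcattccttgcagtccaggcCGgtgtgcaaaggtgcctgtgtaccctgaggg
The Tex13b sequence holds 13 CpG in 300 bases, among them the run cttCGCGCGttt shortly before the start, and 63.7% of the 32851 promoters in the RefSeq table hold at most as many. The Mageb16 sequence holds 6 CpG, and 47.9% of promoters hold at most that number, so that it is near the median of 7 CpG over all promoters. The 28 Rhox promoters in the table had a median of 7 CpG and ranged from 0 to 12, and the 1223 promoters of the X chromosome also had a median of 7. On either strand, the E2F-type motif GCGGGAA, the E-box CACGTG and the TATA motif TATAAA, none of which contains another, were absent from both windows, while they occur in 4.6%, 7.15% and 13.6% of all promoters. The nuclear receptor half-site AGGTCA occurred once in the Mageb16 window, as its reverse complement, and in 16.3% of all promoters. The table holds no entry for Rhox6 and Rhox9, and its start of Rhox5 lies 50234 bases upstream of the GENCODE start, so that window is not shown.

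Before the members, 4 facts about the libraries bear on their values. Usb1 itself was measured at 32.0 to 56.9 TPM (transcripts per kilobase of exon, scaled to library size, a level per gene length) in the 8 wild-type libraries and at 14.7 to 21.4 TPM in the 9 knockout libraries, so the ranges did not overlap. Total reads on genes, recovered from TPM and gene length, were 15404379 to 17300189 per library. Wild-type day 0 replicate 1 had 239 genes at a single read and knockout day 3 replicate 1 had 1224, against 1352 in the other wild-type day 0 library and 2150 to 2467 in the remaining libraries, so a value of 0 in wild-type day 0 replicate 1 is weaker evidence of absence than elsewhere. Of 6 listed Y-linked genes 3 passed the filter, and all 3 (Ddx3y, Eif2s3y and Uty) were called lower in the knockout at each day, and the summed level of the 6 was 0 TPM in every knockout library against 128 to 160 TPM in wild-type, with Kdm5d at 0 in both genotypes; loss of Y-linked expression and loss of Usb1 coincide in these libraries and cannot be told apart.

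Rhox5 was the most abundant member in wild-type cells. Wild-type cells held 43.6 and 36.5 TPM of it without RA, 35.6, 41.7 and 30.7 TPM after 1 day, and 33.2, 41.5 and 33.2 TPM after 3 days. Knockout cells held 224, 232 and 223 TPM without RA, 181, 203 and 232 TPM after 1 day, and 204, 192 and 145 TPM after 3 days. Every knockout library was thus far above every wild-type library. The mean was 226 TPM ± 4.88 (SD, n = 3) in the knockout and 40.1 TPM ± 4.99 (SD, n = 2) in wild-type at day 0, a ratio of 5.65, and the ratios at day 1 and day 3 were 5.71 and 5.01.

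Rhox6 was close to absent in wild-type embryonic stem cells and rose with RA. Its levels in wild-type were 0 and 1.12 TPM (0 and 5 reads) at day 0, 2.83, 1.05 and 4.14 TPM at day 1, and 21.4, 17.6 and 15.2 TPM at day 3. In the knockout they were 6.86, 10.4 and 7.31 TPM at day 0, 8.82, 6.82 and 8.93 TPM at day 1, and 75.2, 76.9 and 78.4 TPM at day 3. The knockout libraries were above the wild-type libraries of the same day, but the wild-type libraries of day 3 were above the knockout libraries of day 0 and day 1. By counting alone, a count of 0 allows up to 0.622 TPM in wild-type day 0 replicate 1. That library had few genes at 1 read, so this is not a firm upper limit. Against the other wild-type library of day 0 alone, with 5 reads, the ratio was 7.34, which is imprecise at so few reads. The ratio of mean TPM was 3.06 at day 1 and 4.26 at day 3.

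Rhox9, a close relative of Rhox6, was the least abundant member in the knockout at day 0 and day 1. Wild-type libraries held 0 and 0.0908 TPM (0 and 1 reads) at day 0, 0.442, 0.597 and 0.531 TPM (5 to 7 reads) at day 1, and 2.35, 3.31 and 2.52 TPM at day 3. The knockout libraries held 1.57, 1.68 and 1.92 TPM at day 0, 1.53, 1.55 and 3.39 TPM at day 1, and 16.0, 14.0 and 12.4 TPM at day 3. The order of the groups was that of Rhox6, with the knockout above wild-type at each day and day 3 above the earlier days in both genotypes. At day 0 the comparison rests on 60 reads over 3 knockout libraries and 1 read in wild-type replicate 2. Its ratio of 19.0 is therefore very imprecise. The count of 0 in replicate 1 allows up to 0.252 TPM by counting alone, again not a firm upper limit in that library. The ratio of means was 4.12 at day 1 and 5.18 at day 3.

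Tex13b had the largest difference between genotypes on the scale of log2(TPM + 1), at each day, though at day 0 the ratio of mean TPM was larger for Rhox6 and Rhox9, whose wild-type levels were near 0. Wild-type libraries held 6.43 and 15.5 TPM before RA, 12.9, 16.5 and 15.6 TPM at day 1, and 19.5, 18.5 and 20.2 TPM at day 3. Knockout libraries held 91.4, 87.0 and 98.7 TPM before RA, 86.0, 99.2 and 84.7 TPM at day 1, and 100.2, 121 and 121 TPM at day 3. The lowest knockout library, at 84.7 TPM, was thus far above the highest wild-type library, at 20.2 TPM. The ratios of mean TPM were 8.43, 6.01 and 5.88 at day 0, 1 and 3. The wild-type libraries of day 0 had a larger SD (6.40 TPM, n = 2) than those of day 1 and day 3 (1.87 and 0.868 TPM, n = 3). Against replicate 2 alone, with 192 reads, the ratio at day 0 was 5.96.

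Mageb16 was low in both genotypes. Its wild-type levels were 2.15 and 2.78 TPM at day 0, 4.29, 4.58 and 4.41 TPM at day 1, and 1.44, 2.28 and 1.55 TPM at day 3. Its knockout levels were 13.1, 10.4 and 15.3 TPM at day 0, 13.2, 11.7 and 12.1 TPM at day 1, and 9.16, 6.43 and 10.6 TPM at day 3. The genotypes did not overlap at any day, and the wild-type libraries of day 1 stood above those of both other days. The ratios of mean TPM were 5.25, 2.78 and 4.97. Of the stretches of 50 bases in its annotated exons, 55.1% also occur in the pseudogene Mageb16-ps2, so the split of reads between them is uncertain; Mageb16-ps2 was at 0.413 to 6.70 TPM, with both extremes in wild-type at day 0, and its log2 differences of -0.11, 0.39 and 0.44 were not called by limma (adjusted p = 0.936, 0.648 and 0.709). Rhox6 shares 16.5% of such stretches with Rhox9, and 6.28% of those of Rhox9 occur in Rhox6. For Tex13b the shared portion was 0.291%, and for Rhox5 it was 0.

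**Figure D1:**
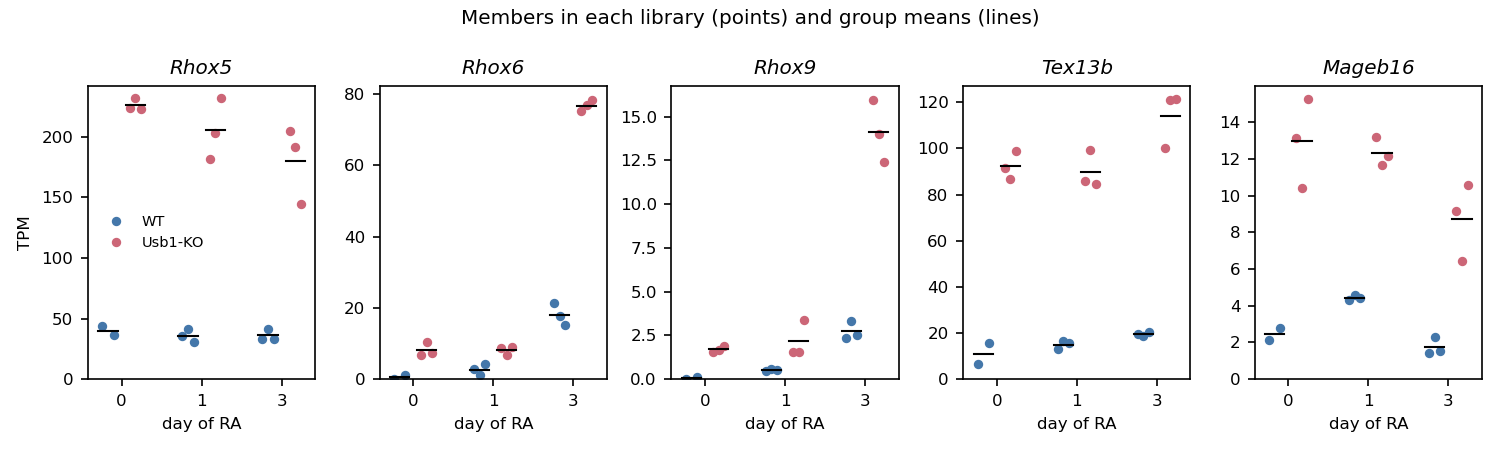
Level of each member (TPM, linear axes that differ between panels) in the 17 libraries by day of RA, with 1 point per library and a line at each group mean, for wild-type and Usb1 knockout cells. In every panel the knockout points lie above the wild-type points of the same day, and Rhox6 and Rhox9 are highest at day 3 in both genotypes.

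In the order of group means, Rhox5 was the highest and Tex13b the next in the knockout at every day (226 and 92.3 TPM at day 0, 205 and 90.0 TPM at day 1, 180.3 and 114 TPM at day 3), and their libraries did not overlap. Mageb16 followed at day 0 and day 1 (12.3 TPM at day 1), ahead of Rhox6 with 8.18 and 8.19 TPM; at day 0 the lowest library of Mageb16 and the highest of Rhox6 were both at 10.4 TPM. At day 3 Rhox6, at 76.8 TPM, came next after Tex13b, and Mageb16, at 8.73 TPM, was last, below Rhox9 at 14.1 TPM. In wild-type the order at day 0 and day 1 was Rhox5, Tex13b, Mageb16, Rhox6 and Rhox9, with Mageb16 (4.29 to 4.58 TPM) just above Rhox6 (1.05 to 4.14 TPM) at day 1. At day 3 the libraries of Tex13b (mean 19.4 TPM) and Rhox6 (mean 18.0 TPM) overlapped in wild-type, and Rhox9 (2.35 to 3.31 TPM) was just above Mageb16 (1.44 to 2.28 TPM).

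On the scale of log2(TPM + 1), which understates the change of low genes, the differences of knockout minus wild-type at day 0, 1 and 3 were 2.47, 2.48 and 2.29 for Rhox5. They were 3.07, 2.51 and 2.49 for Tex13b and 2.00, 1.29 and 1.81 for Mageb16. Rhox6 had 2.64, 1.41 and 2.04 and Rhox9 had 1.38, 1.00 and 2.02. The median over the 5 members was 2.47, 1.41 and 2.04, and the median over all genes tested was 0.00, -0.13 and 0.00. In these differences 1.6%, 0.462% and 0.521% of all genes were called higher in the knockout at day 0, 1 and 3 (limma, adjusted p under 0.05 and at least 2-fold). The knockout libraries were all above the wild-type libraries for 15.3%, 9.41% and 11.0% of genes, and for 303 genes (1.39%) at all 3 days. Nothing is read from the members' place among these, since it is what chose them.

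Rhox9 had the smallest difference, 1.00 at day 1, the value nearest to a 2-fold change. The 721 X-linked genes tested besides the members had median log2 differences of 0.01, -0.10 and 0.00, against 0.00, -0.13 and 0.00 for 21082 autosomal genes. Of these X-linked genes 1.8%, 0.555% and 0.693% were called higher at day 0, 1 and 3, and of autosomal genes 1.57%, 0.422% and 0.493%. The shares were thus close once the members, which were chosen for this difference, were left out. Autosomal genes were not left out in this way. With the members, the X-linked shares were 2.48%, 1.24% and 1.38%, and nothing is read from these.

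**Figure D2:**
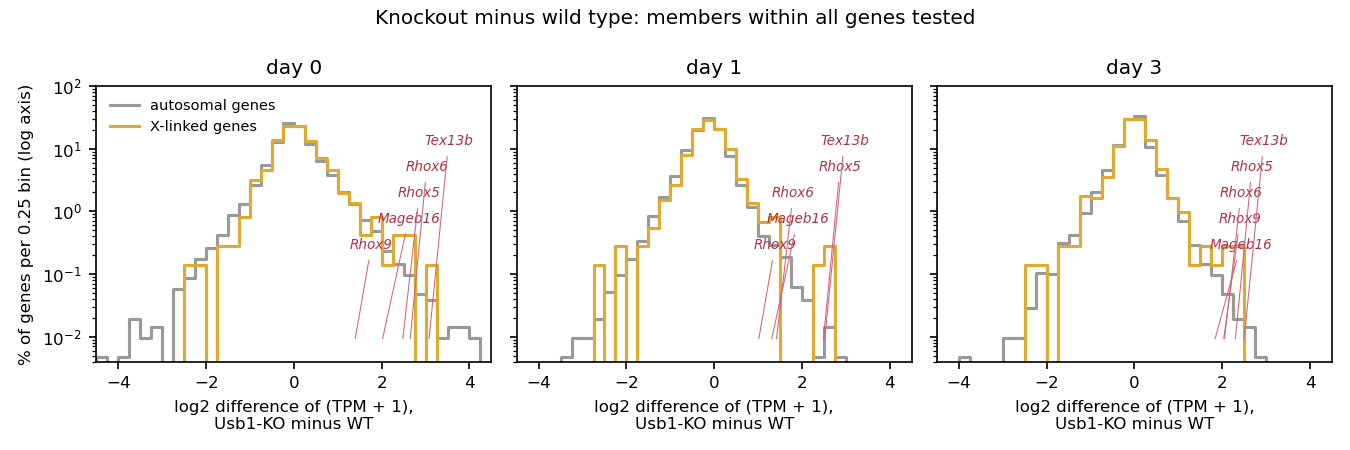
Distribution of log2 differences of (TPM + 1), knockout minus wild-type, for autosomal and X-linked genes tested at each day, as percent of genes per bin of 0.25 on a log axis, with lines from the names to the members' values on the horizontal axis. Both curves centre near 0, and all 5 members lie in the upper tail, from 1.00 (Rhox9 at day 1) to 3.07 (Tex13b at day 0).

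The change with RA within each genotype was not used to choose the members. In wild-type cells between day 0 and day 1, 1 of 5 members was called, against 13.9% of all genes (9.99% called higher). This was Rhox6, with a log2 change of 1.24 ± 0.34 (SE; limma, adjusted p = 0.0108). Its groups overlapped, because replicate 2 of day 0 was at 1.12 TPM and replicate 2 of day 1 at 1.05 TPM, and the change was no longer called without wild-type day 0 replicate 1 (0.70) or without wild-type day 1 replicate 3 (0.95). The 4 other members had changes from -0.16 for Rhox5 to 0.65 for Mageb16. Mageb16 had an adjusted p of 0.0192 (limma) and groups that did not overlap, but less than a 2-fold change.

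Between day 0 and day 3 of wild-type cells, Rhox6 and Rhox9 rose, 2 of 5 members against 25.8% of all genes called and 16.1% called higher. Rhox6 rose by 3.70 ± 0.34 (SE) on the log2 scale (limma, adjusted p = 3.55e-07), and Rhox9 by 1.83 ± 0.23 (adjusted p = 9.65e-06 in the same fit). Their day 3 libraries were all above their day 0 libraries. Tex13b had a log2 change of 0.88 ± 0.23 (limma, adjusted p = 0.00427), under the 2-fold limit, and the 2 wild-type day 0 libraries gave unlike results, with 0.31 when replicate 1 was left out and 1.46, then called, when replicate 2 was left out. Without replicate 1, Rhox6 and Rhox9 still rose, by 3.16 and 1.76. Rhox5 at -0.15 and Mageb16 at -0.34 did not pass (limma, adjusted p = 0.449 and 0.181).

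From day 1 to day 3, a comparison that does not use the day 0 libraries, both genes rose, and the log2 change in wild-type was 2.46 ± 0.31 for Rhox6 and 1.28 ± 0.21 for Rhox9 (limma, adjusted p = 1.1e-05 and 0.000135). These were the 2 of 5 members called, against 15.2% of all genes (7.7% called higher). Mageb16 stood just outside the limit with a log2 change of -0.99 ± 0.18 (limma, adjusted p = 0.000369), and all its day 3 libraries were below those of day 1. Tex13b had 0.36 and Rhox5 0.00.

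In the knockout, 0 of 5 members were called between day 0 and day 1, against 6.95% of all genes (4.07% called higher). The log2 changes were small, from -0.15 for Rhox5 to 0.17 for Rhox9, and the smallest adjusted p among the members was 0.505 (limma), with 0 at an unadjusted p under 0.05 and 0 called by voom on recovered reads. The day 1 libraries overlapped those of day 0 for each of them. By day 3, Rhox6 had risen by 3.10 ± 0.31 and Rhox9 by 2.47 ± 0.21 on the log2 scale (limma, adjusted p = 6.54e-07 and 1.15e-07), 2 of 5 members against 21.9% of all genes called (13.8% called higher). Without knockout day 3 replicate 1 these changes were 3.12 and 2.38. Rhox5 had a log2 change of -0.34 ± 0.14 (limma, adjusted p = 0.0563) although its day 3 libraries were all below those of day 0. Mageb16 had -0.53 ± 0.18 (limma, adjusted p = 0.0229) with less than a 2-fold change and overlapping groups, and Tex13b had 0.30 ± 0.20 (limma, adjusted p = 0.242).

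From day 1 to day 3 of the knockout the same 2 members of 5 rose, against 15.3% of all genes called (9.6% called higher). Rhox6 rose by 3.09 ± 0.31 and Rhox9 by 2.30 ± 0.21 on the log2 scale (limma, adjusted p = 1.08e-06 and 3.9e-07). The comparisons of day 1 and day 3 with day 0 share the day 0 libraries of their genotype, and those with day 1 share its libraries. Mageb16 had -0.48 ± 0.18 (limma, adjusted p = 0.0432), again under 2-fold. The members thus fell into a pair that rose with RA by day 3, Rhox6 and Rhox9, and 3 genes of which none was called at any step in either genotype.

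**Figure D3:**
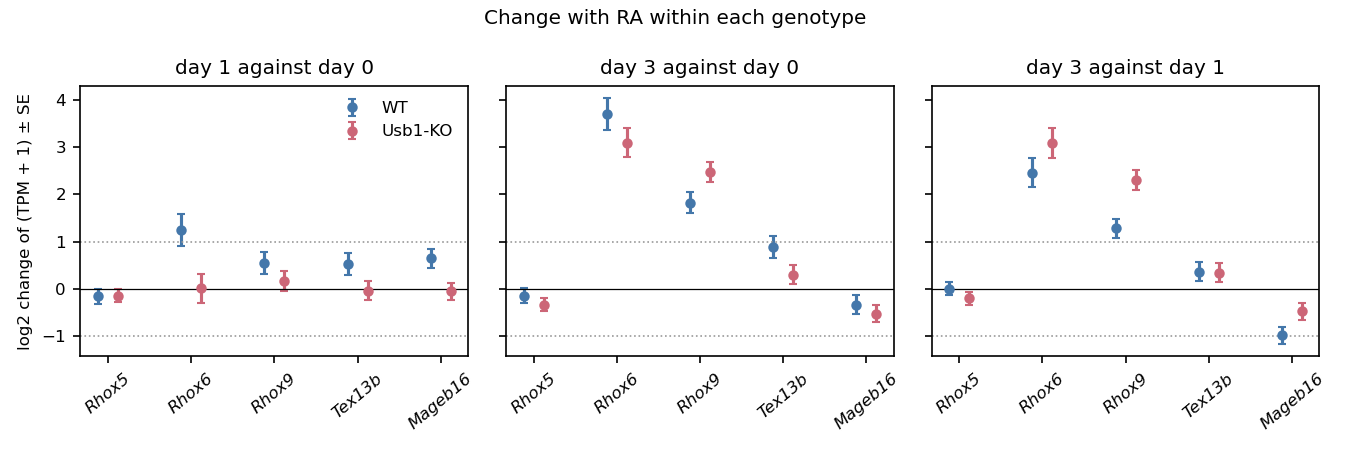
Log2 change of (TPM + 1) with RA for each member in wild-type and Usb1 knockout cells, as the fitted change with its SE, for day 1 and day 3 against day 0 and day 3 against day 1; dotted lines mark a 2-fold change. Rhox6 and Rhox9 lie above the upper line in both genotypes at day 3, while Rhox5 and Tex13b stay between the lines in every panel.

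The responses of the 2 genotypes are set side by side without a test, because they are differences of the contrast that chose the members. The log2 change from day 0 to day 1 in the knockout minus that in wild-type was -1.22 for Rhox6, -0.70 for Mageb16, -0.56 for Tex13b, -0.38 for Rhox9 and 0.01 for Rhox5. The change from day 0 to day 3 differed by -0.59 for Rhox6 and 0.64 for Rhox9. For Rhox9 this sign depends on the pseudocount, since its mean TPM at day 3 was 60.1 times that of day 0 in wild-type, where day 0 holds 1 read in all, and 8.19 times in the knockout. From day 1 to day 3 these were 0.63 and 1.02, so that Rhox9 and Rhox6 both gained more in the knockout over that interval. The size for Rhox9 depends on the pseudocount too, since its mean TPM rose 5.21 times in wild-type and 6.54 times in the knockout. For Rhox6 these ratios were 6.75 and 9.37. That Rhox6 was called at day 1 in wild-type and not in the knockout does not show that the genotypes differed.

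Likeness of pattern was measured as the root mean square difference of log2(TPM + 1), each gene centred on its mean, over the 17 libraries. The points share libraries and the choice of members, so the values are descriptive. Rhox5 and Tex13b differed by 0.474 and no gene outside the 5 was nearer to either, while Rhox5 and Mageb16 differed by 0.549. Rhox6 was nearest to Rhox9, at 0.719, and farthest from Mageb16, at 1.79. Among genes that are not members, the interferon-induced transmembrane gene Ifitm3 (0.484), Pttg1 (0.718) and Catsperg1 (0.727) were nearest to Rhox5, and the zinc finger gene Zfp521 (0.752), Catsperg1 (0.766) and Ifitm3 (0.797) to Tex13b. Pttg1 (0.441) and Trim47 (0.490) were among the nearest to Mageb16. The nearest to Rhox6 were Gm47547 (0.730), Cdkn2a (0.789) and Cd24a (0.794), and the nearest to Rhox9 were Meox1 (0.514), Pdlim3 (0.518) and H2-T-ps (0.526). The genes named here as near to Rhox5, Tex13b and Mageb16 had higher means in the knockout at each day. Those nearest to Rhox6 and Rhox9 had their highest mean at day 3 of the knockout, as Zfp521 and Catsperg1 also did.

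The rest of the Rhox cluster was low and was not called between genotypes. The table holds 42 Rhox genes and pseudogenes, 39 besides the 3 members. Only 6 of these 39 passed the filter, and 0 of the 6 were called between knockout and wild-type at any day, with median log2 differences of 0.42, 0.07 and -0.07 and with 0, 1 and 0 of them at an unadjusted p under 0.05 (limma) and 0 called by voom. These 6 were low as well, from at most 5 reads in any library for Rhox2-ps and Rhox7-ps1 to at most 32 for Rhox13. A difference in them could thus have been missed. Among all genes tested, only 1.6%, 0.462% and 0.521% were called higher in the knockout at day 0, 1 and 3. The other 33 reached at most 2.72 TPM and 11 reads in any library, and 22 of them were at 0 in all libraries, so a difference in them was not detectable at this depth. Rhox10, a neighbour of the members, rose from 0.444 to 5.89 TPM between day 0 and day 1 in wild-type (log2 change 2.32; limma, adjusted p = 9.28e-05) and from 1.12 to 3.42 TPM in the knockout (1.01, adjusted p = 0.0235). Rhox13 fell between day 1 and day 3, from 5.70 to 1.76 TPM in wild-type (log2 change -1.26; limma, adjusted p = 0.00046) and from 6.83 to 1.13 TPM in the knockout (-1.88, adjusted p = 1.11e-05). A rise from day 1 to day 3 was thus seen in Rhox6 and Rhox9, whereas 3 of the 6 other tested Rhox genes were called lower from day 1 to day 3 in wild-type and 3 in the knockout, where 7.54% and 5.73% of all genes were called lower.

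Genes next to the members were too few to set their calls against the share of all genes. That share was 1.6%, 0.462% and 0.521% called higher in the knockout at day 0, 1 and 3. At these days 1.45%, 1.76% and 0.773% were called lower. Of genes starting within 500 kb, 7 were tested around Rhox5, 7 around Rhox6, 8 around Rhox9, 6 around Tex13b and 1 around Mageb16, and those around the Rhox genes are largely the same genes. At day 0 and day 3, 0 of these were called, and at day 1 only Gm7091, near Tex13b, was called higher in the knockout, by limma and by voom. An unadjusted p under 0.05 was reached at day 0, 1 and 3 by 1, 2 and 0 neighbours of each Rhox gene, by 2, 2 and 4 neighbours of Tex13b and by 1, 0 and 0 of Mageb16. Gm7091 had means of 0.734 TPM in wild-type and 8.98 TPM in the knockout at day 1 (log2 difference 2.61; limma, adjusted p = 0.00358). At day 0 and day 3 its log2 differences of 1.29 and 1.64 were not called (limma, adjusted p = 0.168 and 0.0758).

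The lists of related families were chosen with earlier results of these data known. Among all genes tested, 1.6%, 0.462% and 0.521% were called higher in the knockout at day 0, 1 and 3, and 1.45%, 1.76% and 0.773% lower. Lists of this size could thus hold 0 calls without differing from the rest. Of 29 other MAGE genes 7 were tested and 0 were called between genotypes at any day by limma or by voom, with 2 at an unadjusted p under 0.05 at each day. Of 37 other Tex genes 18 were tested, and Tex101, a germ cell surface protein, was the only one called by limma, at day 1 (0.704 TPM in wild-type and 3.08 TPM in the knockout; log2 difference 1.26; limma, adjusted p = 0.00195), while 4, 2 and 5 of them had an unadjusted p under 0.05 at day 0, 1 and 3 and voom called 1, 1 and 0. Of 27 other X-linked testis genes 9 were tested and 0 were called by limma, with 3, 0 and 0 at an unadjusted p under 0.05 and 2 called by voom at day 0. Several MAGE genes changed with RA. Maged1, a ubiquitously expressed adaptor, rose from 106 to 526 TPM between day 0 and day 3 in wild-type (log2 change 2.30; limma, adjusted p = 1.92e-14) and from 102 to 473 TPM in the knockout (2.20, adjusted p = 8.05e-15). In both genotypes 4 of the 7 tested MAGE genes were called higher at day 3 than at day 0, where 16.1% of all genes in wild-type and 13.8% in the knockout were called higher.

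The genes of DNA methylation and germline gene repression, the regulators best known to act on the Rhox cluster, were given as a list of 23 genes, all tested. At each day 0 were called higher and 1 was called lower in the knockout, where 1.45%, 1.76% and 0.773% of all genes were called lower, and at every day this was Dnmt3l, the cofactor that stimulates the de novo methyltransferases. Wild-type libraries held 67.6 and 79.2 TPM of Dnmt3l before RA, 13.9, 13.9 and 16.4 TPM at day 1, and 35.4, 37.1 and 34.2 TPM at day 3. Knockout libraries held 15.8, 15.3 and 15.9 TPM before RA, 6.81, 5.22 and 5.52 TPM at day 1, and 14.0, 14.2 and 11.3 TPM at day 3. Every knockout library was below every wild-type library of its day, with log2 differences of -2.15, -1.20 and -1.37 (limma, adjusted p = 1.67e-07, 6.13e-06 and 3.85e-06). With each library scaled to an equal median, the difference at day 1 was -0.99 and no longer called. The part of Dnmt3l in the levels of the members was not tested. The maintenance methyltransferase Dnmt1 had log2 differences of -0.02, -0.31 and 0.03, with an adjusted p of 0.0226 (limma) at day 1 and less than a 2-fold change. Dnmt3b, a de novo methyltransferase, had 0.01, -0.13 and -0.19 (limma, adjusted p = 0.975, 0.407 and 0.331), and Uhrf1, which recruits Dnmt1 to replicated DNA, had 0.05, -0.13 and 0.27, with an adjusted p of 0.0167 (limma) at day 3 and less than a 2-fold change. Among the 23 genes Dnmt3l was thus the only one called between genotypes, while 11, 15 and 6 had an unadjusted p under 0.05 at day 0, 1 and 3 (limma).

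**Figure D4:**
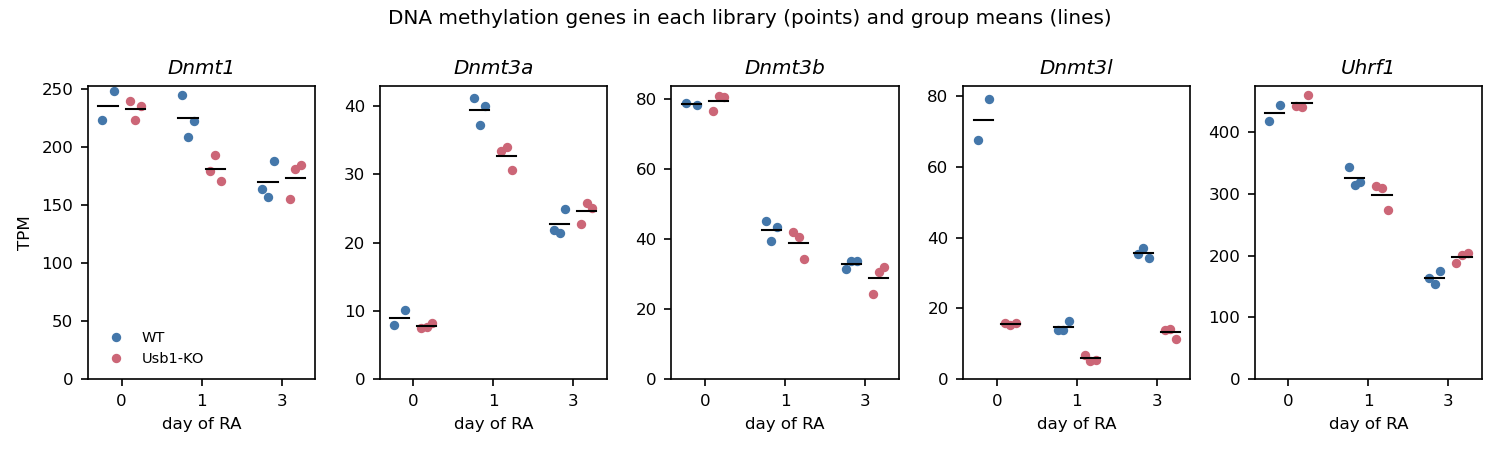
Level (TPM, linear axes that differ between panels) of Dnmt1, Dnmt3a, Dnmt3b, Dnmt3l and Uhrf1 in each library by day of RA, with 1 point per library and a line at each group mean. Dnmt3l is lower in the knockout at each day, with means of 15.7 against 73.4 TPM at day 0, while the points of Dnmt3b overlap between the genotypes at each day.

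Since Rhox genes are expressed in extraembryonic cells and in the germline, markers of those cells were measured beside the members; in bulk samples a change in the number of such cells and a change in RNA per cell cannot be told apart. The summed level of 8 pluripotency markers, the genes that define embryonic stem cells, was 5530 to 5630 TPM in wild-type and 5470 to 5930 TPM in the knockout at day 0, and 572 to 585 and 744 to 871 TPM at day 3. The 10 trophectoderm markers summed to 73.1 to 81.1 TPM in wild-type and 120.0 to 125 TPM in the knockout at day 0, with Elf5 and Tpbpa at 0 in both. At day 3, when Rhox6 and Rhox9 were highest, these sums were 5060 to 5240 and 4780 to 5660 TPM, with Tpbpa still at 0. There 3 of the 8 tested trophectoderm markers were called higher in the knockout, against 0.521% of all genes. The 10 markers of extraembryonic endoderm went the other way, with 1650 to 1950 TPM in wild-type and 674 to 792 TPM in the knockout at day 3. Of these, 5 of 10 were called lower there, against 0.773% of all genes. The 7 markers of primordial germ cells summed to 189 to 195 TPM in wild-type and 184 to 203 TPM in the knockout at day 0. At day 3 the sums were 58.3 to 63.6 and 69.2 to 85.0 TPM. In the knockout 1, 1 and 3 of them were called higher at day 0, 1 and 3, where 1.6%, 0.462% and 0.521% of all genes were. Their median log2 difference at day 3 was nevertheless -0.15, so most of the list did not rise. Tfap2c is on this list and on the trophectoderm list, so their counts are not independent. Of the 7 Sertoli cell markers, Fshr was at 0 in every library, and the sum at day 0 was 34.6 to 46.8 TPM in wild-type and 27.4 to 28.1 TPM in the knockout. However, 1, 0 and 1 of the 5 tested were called higher and 0 lower in the knockout at day 0, 1 and 3 (limma). Of all genes, 1.6%, 0.462% and 0.521% were called higher at these days. The part of these cell types in the levels of the members was not tested.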

How the data were processed

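RNA-seq was carried out on R1/E mouse embryonic stem cells with NEBNext Ultra libraries sequenced on an Illumina NovaSeq. The authors deposited TPM values per gene, calculated from gene length and read count; the submitters' processing notes name HISAT2 2.1.0, StringTie 1.3.6 and GRCm38.p6. Groups and replicate numbers were taken from the sample labels. The members and gene lists were chosen with earlier results of these data known. Genes with at least 1 TPM in at least 2 libraries were tested with limma 3.58.1 (R 4.3.3; eBayes with trend) on log2(TPM + 1), with 6 group means over all 17 libraries and two-sided p-values adjusted by Benjamini-Hochberg over 21871 genes. Calls needed both an adjusted p under 0.05 and a change of 2-fold or more. The authors' own tool, DESeq2, needs counts and was not run. Gene positions came from GENCODE M21, in which 54495 of 54532 identifiers were found, and promoters from RefSeq, in which 3 of 5 members were found. Reads were recovered from TPM and exon length and were whole within 0.01 for 95.9 to 96.7% of genes above 0; the resulting 15404379 to 17300189 reads per library set the precision of low values. The floor of a count of 0 is 3 reads, which covers counting error only. The fit was tested on simulated data with known changes. Genes were named as members, as the called genes of largest change in a list, or as the most abundant where none was called. Rhox10, Rhox13, Maged1, Dnmt1, Dnmt3a, Dnmt3b and Uhrf1 were partly chosen for their relation to the members after their values were seen. Alternatives were other pseudocounts, filters, scalings, libraries, thresholds and voom on recovered reads. P-values measure the spread between replicate cultures of 1 line per genotype. Some results are not reported here.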

Additional observations from a re-analysis of the deposited data

How the results depend on the processing

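No called value changed direction in the alternatives that were run. The differences of the members between genotypes kept their direction too, but nothing is read from this, since that direction chose the members. The number of members called from day 0 to day 1 in wild-type was 1, and it was 2 with a pseudocount of 0.1, with voom on recovered reads and with the adjusted p alone. It was 0 with quantile normalization, with only the libraries compared, and without both libraries poor in genes of 1 read, an alternative chosen after seeing the data, and leaving out 1 library gave 0 to 2. The log2 change of Mageb16 from day 1 to day 3 in wild-type, -0.99, stayed uncalled under 11 of 16 alternatives and was called under 5, with -0.99 by the adjusted p alone and up to -1.35 by voom. The median difference of the members between genotypes at day 0, 1 and 3 was 3.19, 1.77 and 2.31 with a pseudocount of 0.1, and 3.29, 1.97 and 2.32 with voom. At day 1 it was 1.69 with quantile normalization and 1.61 with equal medians; the cause was not tested. At day 0 it was 2.10 without both libraries named above. Leaving out 1 library gave 2.10 to 2.48 at day 0 and 1.31 to 1.71 at day 1.

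The adjusted p alone called 8311, 11396 and 9579 genes in wild-type (day 1 and day 3 against day 0, day 3 against day 1) and 6066, 11258 and 9818 in the knockout, where the 2-fold limit left 3033, 5640, 3335, 1519, 4782 and 3353. Between genotypes at day 0, 1 and 3 it called 2598, 3789 and 1645 genes in place of 668, 485 and 283. Voom called 2317 genes from day 0 to day 1 in the knockout and 1281 between genotypes at day 0. That last count was 73 with only the libraries compared, where fewer samples set the spread, 418 without both libraries named above, and 384 to 2282 when 1 library was left out, the extremes being without wild-type day 0 replicate 1 and replicate 2. Replicate numbers did not pair the samples: deviations of same-numbered libraries correlated at a median of -0.0035 (-0.13 to 0.124 over 40 pairs), and with replicate number as a block 2991 genes and 1 member were called from day 0 to day 1 in wild-type and 610 genes between genotypes at day 0, with every count of members called unchanged. Voom used library totals in place of TMM scaling, and edgeR and DESeq2 were not run because the table holds no counts. Depth limits Rhox9 and Rhox6 in wild-type at day 0, where they rest on at most 5 reads.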

Other observations

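Among 22 germline genes known to be controlled by promoter methylation, 21 were tested and only Tex101, at day 1, was called between genotypes by limma. At day 0 and day 3, 0 were called, with 12 and 8 at an unadjusted p under 0.05 and 1 and 0 called by voom. Among all genes tested, 1.6%, 0.462% and 0.521% were called higher in the knockout at day 0, 1 and 3. At these days 1.45%, 1.76% and 0.773% were called lower. The share of all genes at such an unadjusted p is not given here. The median log2 difference of the 21, knockout minus wild-type, was -0.39 at day 0 and 0.01 at day 3. Over all genes tested the median was 0.0 at both days, and the day 0 value rests on 2 wild-type libraries. RA moved more of the list: 5 of 21 rose between day 0 and day 1 in wild-type and 8 in the knockout, where 9.99% and 4.07% of all genes were called higher. Dazl, an RNA-binding protein of germ cells, was highest at day 1, with 9.89, 26.0 and 6.03 TPM at day 0, 1 and 3 in wild-type and 6.85, 25.9 and 8.33 TPM in the knockout. Its fall from day 1 to day 3 was -1.96 on the log2 scale in wild-type and -1.53 in the knockout (limma, adjusted p = 9.13e-07 and 1.06e-05). Ddx4, the germ cell helicase Vasa, rose by 1.14 and 1.23 on the log2 scale by day 1 (limma, adjusted p = 2.4e-07 and 4.5e-08).

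Another 9 X-linked testis genes were tested, and 3 of them rose by day 3 in wild-type and 4 in the knockout, where 16.1% and 13.8% of all genes were called higher. Taf7l, a testis-enriched subunit of the general transcription machinery, rose from 2.06 to 21.4 TPM in wild-type and from 3.05 to 16.6 TPM in the knockout between day 0 and day 3 (log2 changes 2.90 and 2.14; limma, adjusted p = 1.79e-08 and 1.38e-07). Spin2c rose from 2.62 to 29.1 TPM and from 5.25 to 20.7 TPM (log2 changes 3.59 and 1.80; limma, adjusted p = 3.89e-05 and 0.00475). The wild-type changes rest on 2 day 0 libraries, and fits that leave out either of them are not given for these genes. Whether these responses differ between genotypes was not tested.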
